A study of Macaca fascicularis with 3 samples.

Results

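COL25A1 encodes collagen XXV, a collagen that spans the plasma membrane of the cell that makes it. It was followed in muscle of the cynomolgus macaque, as the single row of that name (ENSMFAG00000031895) among 38550 genes in each of 2 tables of nuclei and among 33368 genes in 1 table of whole cells. The gene was chosen because earlier results of these data had it far higher in extraocular muscle than in limb muscle and high in nuclei that carry the slow myosin chain MYH7. Those differences are therefore given below as descriptions.

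Muscle cells make COL25A1 while motor axons reach them, and in mice without it motor axons fail to enter and branch within skeletal muscle. Inherited variants of the gene in people cause congenital disorders of cranial innervation that affect movement of the eyes and lids. The part outside the cell can be cut off by the protease furin, is found with amyloid deposits in the brain, and binds receptor tyrosine phosphatases on axons such as PTPRD. Extraocular muscle is unusual in holding slow, tonic fibres with many small nerve endings along their length beside fast fibres with a single end plate.

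There were 3 libraries, 1 in each group: nuclei of extraocular muscle (EOM), which moves the eye; nuclei of the quadriceps femoris (QFM), a thigh muscle; and whole cells of EOM. The labels give the animals' species and the muscle but not their number, age or sex, so it is not known whether both muscles came from 1 animal. The QFM title says nuclei whereas its file names say single cells. With 1 library in each group no difference has a replicate check and no test was made, and all intervals are 95% intervals that cover counting error only.

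The EOM nuclei library held 61618999 UMIs (molecular barcodes that let each captured RNA be counted once) in 16491 barcodes, the EOM cell library 12248405 in 8979, and the QFM nuclei library 72590186 in 12503. After filters and removal of called doublets there were 13975 EOM nuclei, 7111 EOM cells and 10525 QFM nuclei, with medians of 2811, 1142 and 4508 UMIs. The EOM and QFM nuclei libraries shared 51 barcodes, and the EOM nuclei and cells shared 0. Clusters matching muscle fibre markers held 7681 EOM and 7424 QFM nuclei, called myonuclei here; those of the neuromuscular junction are included. Outside the junctional cluster of each muscle, their 13 measured fibre markers summed to 36719 CPM (UMIs per 1000000 UMIs) in EOM and to 76267 CPM for QFM. The endothelial-like nuclei of the same libraries had 4011 CPM in EOM and 5807 CPM in QFM, so fibre RNA was also present outside fibres.

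COL25A1 stood at 525 CPM in EOM myonuclei (interval 517 to 534, from 15639 UMIs) and at 12.2 CPM in QFM myonuclei (11.1 to 13.3, from 517 UMIs). At least 1 COL25A1 UMI was seen in 31.8% of EOM myonuclei and in 0.956% of QFM myonuclei. With every nucleus thinned to 1000 UMIs, which left out 828 EOM and 60 QFM nuclei, the shares were 18.5% and 0.339%. The log2 ratio of EOM over QFM was 5.43 (5.31 to 5.56), a 43.2-fold difference, where the median of all 18997 genes compared was 0.39, so that COL25A1 stood 5.04 above that median. Of those genes 32.6% were at least 2-fold higher and 9.46% at least 2-fold lower in EOM, and 1.31% had a larger ratio than COL25A1. Nothing is read from this rank, since the gene was picked for it.

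**Figure D1:**
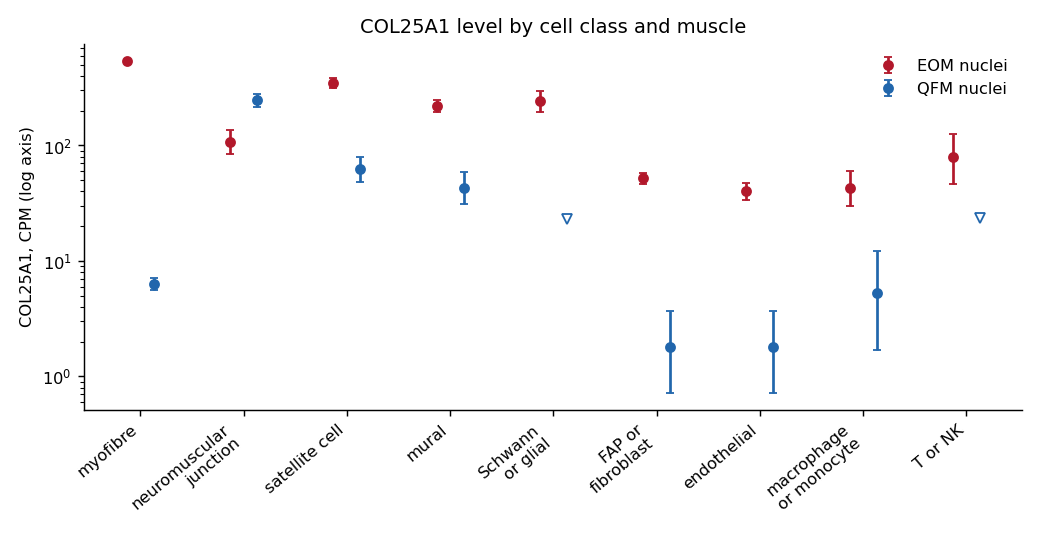
COL25A1 level in CPM on a log axis, by cell class, in EOM nuclei (red) and QFM nuclei (blue). Points are sums over all nuclei of a class with exact Poisson intervals, and open triangles mark classes with no COL25A1 UMI, placed at the level that 3 UMIs would give. EOM is higher in every class shown except the junctional one, where EOM stands at 108 CPM and QFM at 246 CPM.

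Nuclei outside fibres also held COL25A1 UMIs. Endothelial-like EOM nuclei, from cells not known for this gene, had 40.3 CPM (34.0 to 47.4) with a UMI in 10.1% of nuclei at a median of 2625 UMIs. Fibroblast-like EOM nuclei had 51.9 CPM and macrophage-like EOM nuclei 43.0 CPM, while T or NK-like EOM nuclei had 79.1 CPM (46.1 to 127). In QFM, where the fibres had little COL25A1, endothelial-like nuclei had 1.78 CPM and fibroblast-like nuclei 1.79 CPM, from 7 UMIs each. Levels in EOM at or under that of endothelial-like nuclei are not read as expression, and the part of free RNA, missed doublets or low expression in them was not tested.

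Against that level 2 non-fibre classes stood clear in both muscles. Satellite-like nuclei, from the stem cells of muscle, had 350 CPM in EOM (315 to 387) and 62.0 CPM in QFM (48.1 to 78.8), a log2 ratio of 2.50 (2.12 to 2.89). Thinned to 1000 UMIs, a COL25A1 UMI was present in 25.2% of EOM and 5.61% of QFM satellite-like nuclei, in each muscle a larger share than in its own myonuclei. Mural-like nuclei, from pericytes and vascular smooth muscle, had 219 CPM in EOM and 43.2 CPM in QFM, the QFM value from 40 UMIs in 11 nuclei. Single nuclei held much of the mural signal: 1 nucleus carried 33.6% of the UMIs of 1 of the 2 EOM mural-like clusters.

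Other EOM classes gave values that rest on few barcodes or on doubtful ones. Schwann-like nuclei had 243 CPM in EOM from 93 UMIs, of which 1 nucleus held 64, and 0 UMIs in 31 QFM nuclei, where 3 UMIs would be 23.1 CPM. Without that nucleus its cluster had 29.1 CPM. The other EOM Schwann-like cluster had 107 CPM (69.0 to 157) with a UMI in 17 of 91 nuclei, and 70.1 CPM without its highest nucleus. The 766 neuron-like EOM barcodes, with a median of 876.5 UMIs, had 219 CPM. A further 232 EOM barcodes in cluster 9, with a median of 11358 UMIs and tied between 2 class scores, had 479 CPM and were left unnamed and out of the myonuclei.

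Whole cells of EOM held almost no COL25A1: 34 UMIs in 7111 cells, or 3.52 CPM. That library had 33 fibre-like cells with 0 COL25A1 UMIs, where 3 UMIs would be 57.9 CPM, so it does not measure the gene in fibres. Of the 34 UMIs, 15 were in Schwann-like cells (36.1 CPM) and 12 in mural-like cells. All 12 mural UMIs lay, 1 to a cell, in 1 cluster of 242 cells at 50.5 CPM (26.1 to 88.2), which carried KCNJ8, a potassium channel gene of pericytes, at 248 CPM. Endothelial-like cells had 0 UMIs in 1017 cells, where 3 UMIs would be 1.75 CPM. Satellite-like cells had 2 UMIs in 32 cells.

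Within EOM myonuclei COL25A1 followed MYH7, the slow myosin heavy chain that is also the main chain of slow limb fibres. Nuclei were first grouped by the chain with the most UMIs among the 6 named chains, where at least 3 such UMIs were seen. The chains are close copies of each other and MYH1, MYH2 and MYH8 have no symbol in the nuclei tables, so each chain count is uncertain. MYH7-led EOM nuclei, 182 in all, had 5827 CPM of COL25A1 (5651 to 6008) and a UMI in 94.0% of nuclei. MYH3-led nuclei, named by the row of an embryonic chain, had 1058 CPM over 1061 nuclei. That row also led 4460 of the 7424 QFM myonuclei. Among EOM clusters it was highest in cluster 6, at 9382 CPM beside MYH13 at 17496 CPM. It is therefore not read here as a sign of embryonic fibres. MYH15-led nuclei, named by an ancient slow-tonic chain, had 506 CPM over 1558 nuclei. MYH13-led nuclei, named by the superfast chain of extraocular muscle, had 163 CPM (157 to 169) over 4460 nuclei. Each of these 4 levels lay outside the others' counting intervals.

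The remaining EOM groups were small. The 347 nuclei tied between chains had 1811 CPM at a median depth of 1406 UMIs, and 10 MYH6-led nuclei had 585 CPM. The 3 MYH4-led nuclei had 0 UMIs. In QFM, 2894 MYH7-led nuclei had 19.0 CPM (17.1 to 21.1) and 4460 MYH3-led nuclei 6.89 CPM (5.88 to 8.03). Thus the order by chain was the same for the 2 groups present in both muscles, at levels below that of EOM endothelial-like nuclei. The QFM order rests on 17 nuclei, described below, which held 460 of the 517 COL25A1 UMIs of QFM myonuclei. Of these 17, 11 were MYH7-led and 6 MYH3-led.

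**Figure D2:**
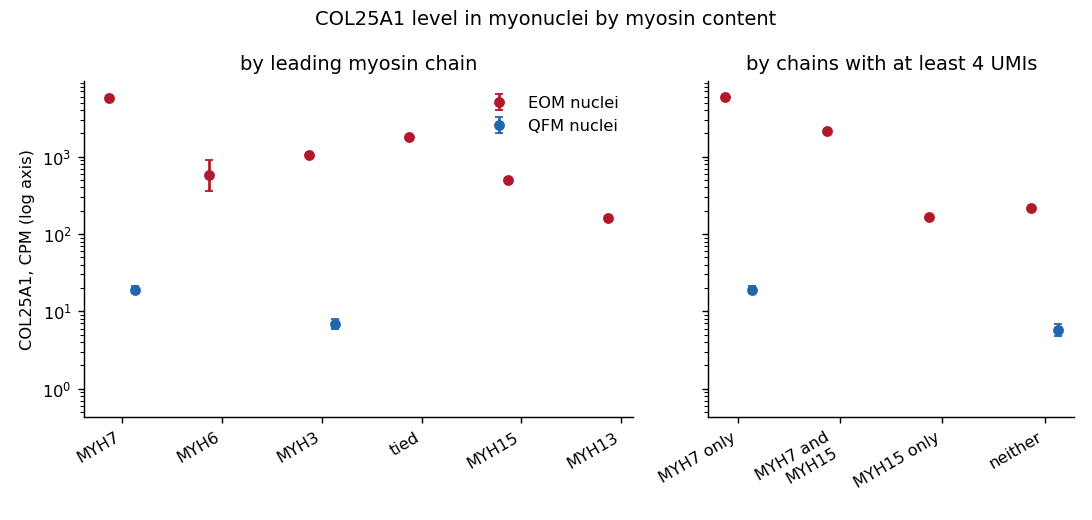
COL25A1 level in CPM on a log axis in myonuclei of EOM (red) and QFM (blue), by leading myosin chain (left) and by which of MYH7 and MYH15 reached 4 UMIs (right). Points are sums with exact Poisson intervals for groups of at least 10 nuclei. The highest EOM groups are MYH7-led nuclei at 5827 CPM and nuclei with MYH7 alone at 5890 CPM.

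Grouping by at least 4 UMIs of MYH7 or of MYH15 separated the slow chains. EOM nuclei with MYH7 alone, 268 in all or 3.49% of myonuclei, had 5890 CPM of COL25A1, a UMI in 89.2% of nuclei and 39.0% of all myonuclear COL25A1 UMIs. The 466 nuclei with both chains had 2126 CPM and a UMI in 80.9%. The 2932 nuclei with MYH15 alone had 165 CPM and a UMI in 29.8%, and the 4015 with neither had 216 CPM and 23.7%. MYH15 without MYH7 thus went with a COL25A1 level no higher than in nuclei with neither chain. In QFM, 3053 nuclei with MYH7 alone had 19.0 CPM and 4370 with neither had 5.71 CPM, while 1 nucleus with both had 0 UMIs.

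Taking all EOM myonuclei with at least 4 MYH7 UMIs against those with fewer, COL25A1 stood at 3369 CPM in 734 nuclei and at 191 CPM in 6947 nuclei, a log2 ratio of 4.14 (4.09 to 4.19). Of 17158 genes compared, 7.43% were at least 2-fold higher and 9.13% at least 2-fold lower in the MYH7 nuclei, and COL25A1 ranked 24 from the top. The same cut in QFM gave 19.0 and 5.71 CPM, a log2 ratio of 1.74 (1.44 to 2.04), with 6.82% of genes higher and 9.03% lower. That ratio rests on 17 nuclei, described below: 14 of them held 359 of the 392 COL25A1 UMIs of the MYH7 group and 3 held 101 of the 125 of the other, and outside them the levels were 1.61 and 1.097 CPM. The 2 main slow clusters of QFM, with MYH7 at 3874 and 3993 CPM, nevertheless had 1.76 and 1.47 CPM of COL25A1. Between muscles, nuclei with at least 4 MYH7 UMIs differed 177-fold, with 3369 CPM for EOM against 19.0 CPM for QFM, and nuclei with fewer differed 33.4-fold, at 191 and 5.71 CPM, both QFM levels resting on those 17 nuclei. MYH7 itself was lower in EOM than in QFM myonuclei, by a log2 ratio of -2.57. Even MYH7-rich QFM nuclei lay below EOM nuclei with fewer than 4 MYH7 UMIs in COL25A1.

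The level did not climb steadily with MYH7. EOM nuclei with 0, 1 to 3, 4 to 7, 8 to 15 and 16 or more MYH7 UMIs had 93.6, 396, 3226, 3375 and 3738 CPM of COL25A1. Nearly the whole rise thus lay below 8 MYH7 UMIs, and the upper 3 bins spanned a narrow range. In QFM the same bins had 3.82, 8.13, 43.5, 17.4 and 17.9 CPM, with the peak at 4 to 7 UMIs resting on 41 COL25A1 UMIs in 184 nuclei.

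MYH15 and COL25A1 went opposite ways among slow EOM nuclei. With at least 4 MYH7 UMIs, nuclei holding 0, 1 to 3, 4 to 7, 8 to 15 and 16 or more MYH15 UMIs had 6208, 5799, 3524, 2057 and 1768 CPM of COL25A1. Median depth in these bins ran between 3044 and 4529 UMIs without following the order. With fewer than 4 MYH7 UMIs there was no such order, at 298, 197, 249, 307 and 110 CPM. Over all EOM myonuclei, those with at least 4 MYH15 UMIs had 433 CPM and those with fewer 623 CPM, a log2 ratio of -0.53 (-0.57 to -0.48), where 2.22% of genes were at least 2-fold higher and 2.96% lower. That sign rested on 1 cluster, since without cluster 7, described next, the ratio was 1.39.

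**Figure D3:**
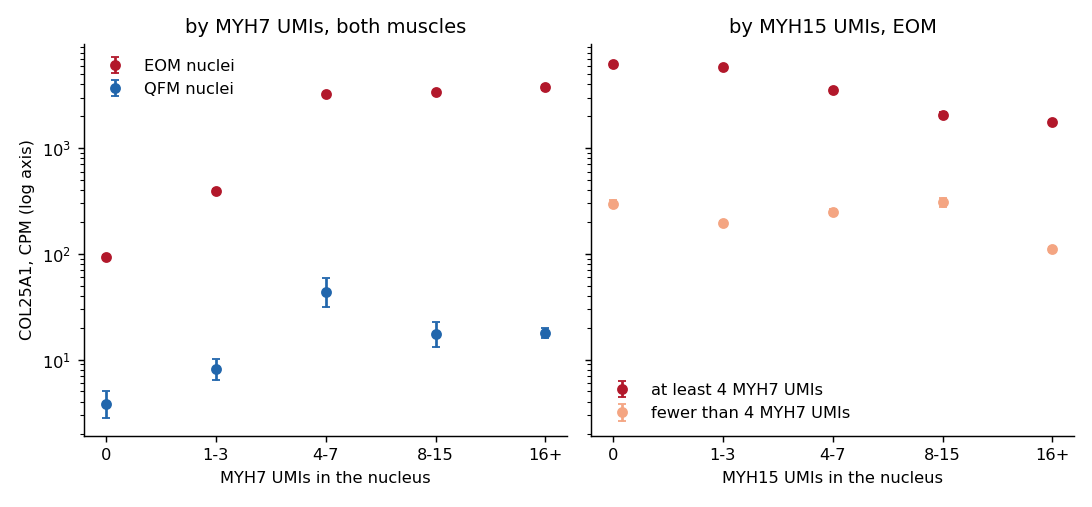
COL25A1 level in CPM on a log axis by the number of MYH7 UMIs in a nucleus in EOM (red) and QFM (blue), left, and by MYH15 UMIs in EOM nuclei with at least 4 (red) or fewer (light red) MYH7 UMIs, right. Points are sums with exact Poisson intervals; in EOM the level reaches 3226 CPM at 4 to 7 MYH7 UMIs, and in MYH7 nuclei it falls to 1768 CPM at 16 or more MYH15 UMIs.

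The 8 EOM clusters of myonuclei showed where these nuclei lay, as a description, since COL25A1 was one of the genes that shaped the clusters. Cluster 7, with 486 nuclei or 6.33% of myonuclei, had 6029 CPM of COL25A1, a UMI in 91.4% of nuclei and 60.7% of all myonuclear COL25A1 UMIs. It carried MYH7 at 1808 CPM and MYH15 at 1186 CPM, and COL25A1 was among its 10 leading genes, with TECRL and CA3 first. Cluster 16, with 575 nuclei, had 1596 CPM, a UMI in 73.6% and 23.9% of the UMIs. It carried MYH7 at a like level, 1751 CPM, but MYH15 at 5742 CPM and MYH6, the atrial chain, at 238 CPM.

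The other EOM clusters were far lower. Cluster 3, shallow nuclei with a median of 1305 UMIs and mitochondrially encoded genes in the lead, had 343 CPM. Clusters 4, 5, 6 and 13, which carried MYH13 at 7044 to 17496 CPM and little MYH7, had 48.6, 75.004, 52.5 and 60.02 CPM, little above the endothelial-like level of 40.3 CPM. MYH15 was highest of all in cluster 4, at 10567 CPM, where COL25A1 was lowest, at 48.6 CPM. Without cluster 7 the EOM over QFM log2 ratio was 4.16, and without clusters 7 and 16 it was 2.94. The 506 CPM of MYH15-led nuclei also came from these clusters: their log2 ratio over MYH13-led nuclei was 1.63 (1.56 to 1.71) over all myonuclei and -0.49 without clusters 7 and 16.

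Counts per nucleus were uneven even inside the high clusters. Cluster 7 nuclei had a median of 14 COL25A1 UMIs with quartiles of 4 and 28 and a maximum of 137, and 42 of 486 had 0. Cluster 16 nuclei had a median of 3, quartiles of 0 and 8 and a maximum of 103, and 152 of 575 had 0. Their spread around the level set by depth was 15.3 and 13.6 times that of Poisson counts, against 1.13 to 1.24 times in clusters 4, 5, 6 and 13. Over the whole library 429 EOM myonuclei (5.59%) had 10 or more COL25A1 UMIs and held 73.9% of them, and of these 295 were in cluster 7, 122 in cluster 16 and 12 in cluster 3.

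**Figure D4:**
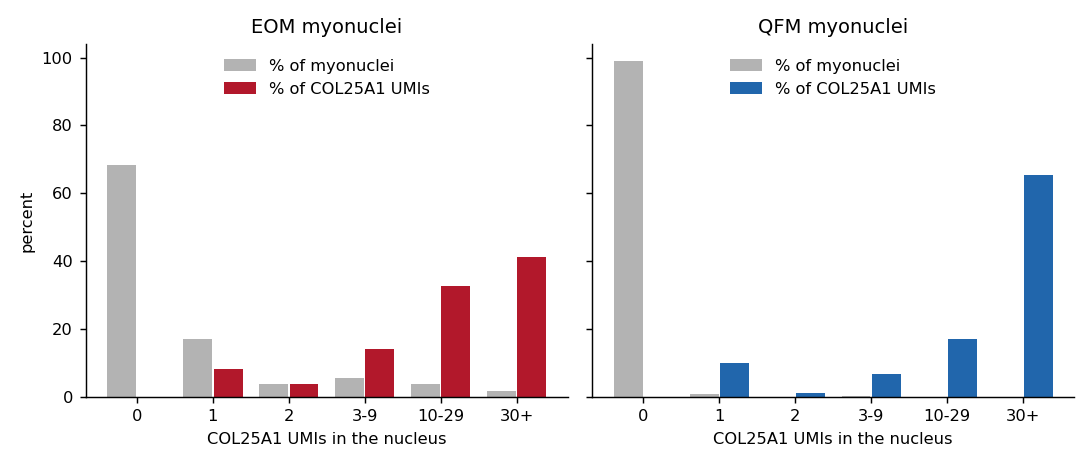
Share of myonuclei (grey) and share of all myonuclear COL25A1 UMIs (coloured) by the number of COL25A1 UMIs in a nucleus, in EOM (left) and QFM (right), in percent. In EOM 1.77% of nuclei have 30 or more UMIs and hold 41.1% of the total, and in QFM 0.0808% hold 65.4%.

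In QFM the signal came from a handful of nuclei. Of 7424 QFM myonuclei, 7353 had 0 COL25A1 UMIs and 51 had 1, while 17 nuclei (0.229%) with 3 or more held 460 of the 517 UMIs (89.0%). The highest had 119 UMIs, the next 60, 52, 38 and 38. Without these 17 nuclei the EOM over QFM log2 ratio was 8.61. Of the 17, 10 were in the cluster that matched neuromuscular junction markers (cluster 20, 140 nuclei), 5 in cluster 8 and 2 in cluster 1, and 14 had at least 4 MYH7 UMIs.

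These 17 QFM nuclei carried some genes of the neuromuscular junction, the contact where the motor axon meets the fibre. MUSK, the receptor kinase that gathers acetylcholine receptors under the nerve ending, had a UMI in 15 of the 17 and in 4.36% of the other QFM myonuclei, at 832 and 21.2 CPM. CHRNA1, the receptor's alpha subunit, had a UMI in 11 of 17 and in 1.30% of the others. CHRNE, the subunit of the adult receptor, had one in 7 of 17 and in 0.0675%. LRP4, the agrin receptor that partners MUSK, had one in 10 of 17 and in 7.91%, and PHLDB2, an anchor of the postsynaptic apparatus, in 8 of 17 and 2.52%.

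The contrast was also seen at equal depth. The 17 nuclei had a median of 7887 UMIs and the others 5103. With every nucleus thinned to 2000 UMIs, MUSK had a UMI in 12 of the 17 and 2.21% of the others, and CHRNA1 in 7 and 0.555%. Also among the 12 genes of largest ratio in the 17 were PDZRN4 (a UMI in 9, against 0.149% of the others), EPB41L4A (15, against 3.92%) and AKAP11 (14, against 6.71%). Not all junction genes were raised. RAPSN, which clusters the receptors, had 1 UMI in 1 of the 17 nuclei and a UMI in 4.71% of the others. DOK7, also on the junction list, had a UMI in 3 of the 17 and in 23.1% of the others. CHRNB1, another receptor subunit, had a log2 ratio of 0.23. NRG1 and ERBB3 had 0 UMIs in the 17, and a UMI in 2.11% and 0.135% of the others. These genes were picked for their high level in the 17 nuclei or named after their values were seen, so the shares are a description.

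Grouped by MUSK, QFM myonuclei with 0, 1 to 2 and 3 or more MUSK UMIs had 1.60, 14.97 and 435 CPM of COL25A1, over 7086, 228 and 110 nuclei. These levels restate the 17 nuclei from which MUSK was picked: 13 of them held 425 of the 429 COL25A1 UMIs of the top bin, and 2 held 23 of the 24 in the middle bin. EOM myonuclei in the same bins had 221, 957 and 1498 CPM, over 5534, 1499 and 648 nuclei. Median depth in these EOM bins was 3352.5, 3641 and 5019.5 UMIs. MUSK stood at 486 and 689 CPM in EOM clusters 7 and 16, which held most COL25A1 UMIs. The EOM junctional cluster had more MUSK, 2193 CPM, but only 108 CPM of COL25A1. Among thinned EOM nuclei with at least 4 MYH7 UMIs, the log2 ratio of MUSK with over without COL25A1 was -0.11. The part of fibre type and depth in the EOM order was not tested. In QFM the highest MUSK bin still had a COL25A1 UMI in 13.6% of its nuclei, so most nuclei rich in MUSK had none.

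The level of COL25A1 was lower in the junctional cluster of EOM and higher in that of QFM than in the other myonuclei, but each ratio rests on few clusters or nuclei. In EOM the 144 junctional nuclei (cluster 24) had 108 CPM of COL25A1 and the other myonuclei 535 CPM, a log2 ratio of -2.31. In QFM the 140 junctional nuclei had 246 CPM and the others 6.29 CPM, a log2 ratio of 5.29. A COL25A1 UMI was present in 31.9% of EOM junctional nuclei and 31.8% of the other EOM myonuclei, at median depths of 4488.5 and 3533 UMIs. Thinned to 1000 UMIs, the shares were 14.8% (9.29 to 21.9) and 18.5% (17.6 to 19.5). The 535 CPM came mostly from clusters 7 and 16, and the EOM junctional level lay above that of clusters 4, 5, 6 and 13, which is at most 75.004 CPM. In QFM 10 of the 17 nuclei held 253 of the 256 junctional UMIs, and 8.57% of junctional nuclei had a UMI. Of the junction genes measured, 11 of 19 were at least 2-fold higher and 2 lower in the EOM junctional nuclei, against 8.6% and 11.7% of all genes. In the QFM ones 12 of 17 were higher and 0 lower, against 12.7% and 8.98%. Junction genes shaped these clusters, so the counts only describe them, with medians of 1.13 and 1.91 (log2) against -0.12 and -0.01 over all genes. The EOM junctional cluster was of fast type, with MYH13 at 11755 CPM and MYH7 at 87.1 CPM. The QFM one carried MYH3 at 2710 CPM and MYH7 at 2079 CPM, against 5588 and 1869 CPM in the other QFM myonuclei. Fibre type and muscle cannot be told apart here.

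The acetylcholine receptor subunits of MYH7-rich EOM nuclei included that of the fetal receptor. CHRNG, the gamma subunit that is kept in adult slow-tonic eye muscle fibres, had 39.6 CPM in nuclei with at least 4 MYH7 UMIs and 7.85 CPM in those with fewer, a log2 ratio of 2.33. CHRNE, the adult epsilon subunit, had 0.638 CPM (2 UMIs) and 2.93 CPM (78 UMIs). The pattern turned round at the fast junctions, where CHRNE had 97.6 CPM in EOM junctional nuclei and 0.515 CPM in the others, and CHRNG 9.01 and 11.2 CPM. CHRNA1, shared by both receptors, was high in both places, at 134 CPM in the MYH7 nuclei and 224 CPM in the junctional ones. Among the MYH7 nuclei CHRNG was higher where MYH15 was lower, with 57.0 CPM for MYH7 alone and 31.0 CPM for both chains. Cluster 7 had 66.0 CPM of CHRNG, and cluster 16, which carried more MYH15 and MYH6, had 24.4 CPM.

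To find genes that go with COL25A1 at equal depth, EOM myonuclei were thinned to 2000 UMIs, which kept 5821. Of these 1312 had a COL25A1 UMI and 4509 had none. Of 14470 genes compared, 717 (4.96%) were at least 2-fold higher in nuclei with COL25A1 and 406 (2.81%) at least 2-fold lower. Many of these have few UMIs: among 4030 genes of at least 50 CPM in the higher group, 179 (4.44%) were higher and 14 (0.347%) lower. Ratios were also averaged within MYH13-, MYH15- and MYH3-led nuclei, the 3 chains with at least 20 nuclei on each side, where 696 genes were at least 2-fold higher, 512 of them among the 717.

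Among genes of at least 50 CPM, TECRL, a reductase-like protein of the endoplasmic reticulum known from heart muscle, had the largest ratio, with 401 CPM in nuclei with COL25A1 and 10.5 CPM in those without. Its log2 ratio was 5.25 (4.95 to 5.57) over all nuclei and 4.07 within chains. CA3, a carbonic anhydrase of slow fibres, followed at 4.80, with 210 and 7.54 CPM. DKK2, a secreted modulator of Wnt signalling, stood at 4.43 (3.30 within chains), with 840 and 39.0 CPM. All of the 12 genes of largest ratio were also at least 2-fold higher within chains. They were picked from these same nuclei, so this is a description and no separate check. Of the 429 EOM myonuclei with 10 or more COL25A1 UMIs, 49 were MYH13-led, 108 MYH15-led and 107 MYH3-led, so these groups still held high nuclei.

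Of the other 9 genes of largest ratio, COL28A1, another collagen, had 141 CPM with and 6.54 CPM without COL25A1, a log2 ratio of 4.43. LRP2, the endocytic receptor megalin, stood at 4.23. CNTNAP4, a contactin-associated membrane protein, had 129 CPM with and 8.10 CPM without COL25A1. DPP10, a partner of A-type potassium channels, stood at 3.51 and CSMD3, a large membrane protein, at 3.48. The solute carrier SLC35F1 stood at 3.79. The remaining 3 were HSD17B2, an enzyme that inactivates sex steroids, at 4.01, ARHGAP15, a regulator of Rac, at 3.86 and RIT2, a Ras-like GTPase, at 3.52. RIT2 had the most even level over the slow nuclei, at 2068 CPM with MYH7 alone and 1972 CPM with both chains. It had 110 CPM with MYH15 alone and 93.3 CPM with neither. TECRL, CA3, LRP2 and CNTNAP4 had 1348, 665, 251 and 392 CPM in cluster 7. In cluster 16, also rich in COL25A1, they had only 36.4, 11.1, 2.14 and 10.7 CPM. Nuclei with neither chain had 34.2, 21.7, 7.40 and 13.8 CPM of them, so cluster 16 was little or not raised. The rest of the 12 were higher in cluster 16 than in nuclei with neither chain, RIT2 most, at 1786 CPM.

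**Figure D5:**
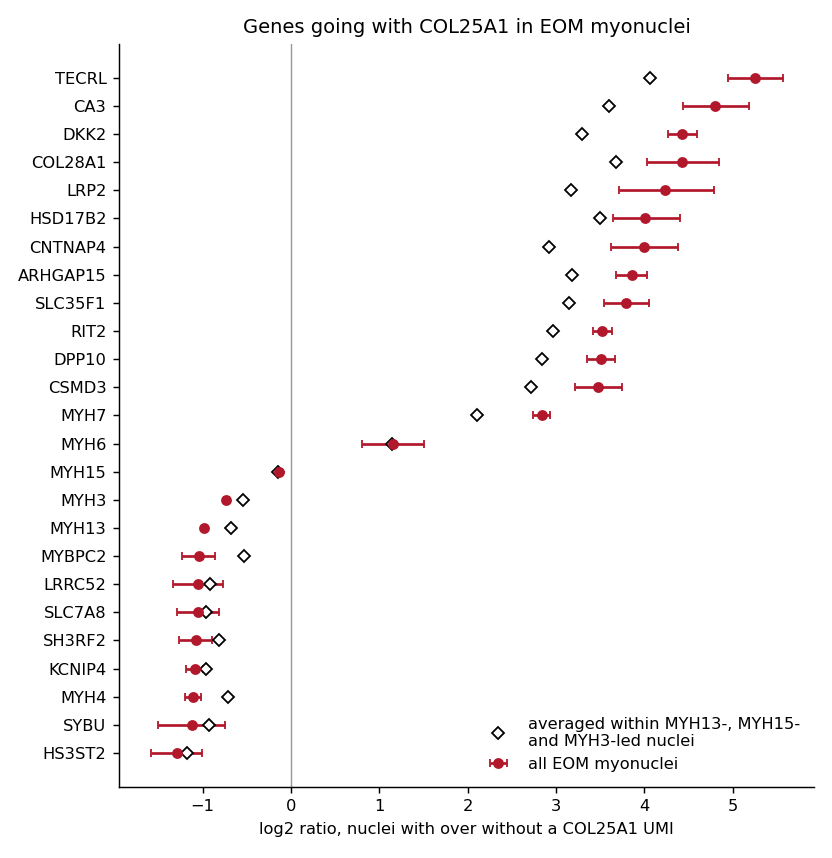
Log2 ratio of EOM myonuclei with over without a COL25A1 UMI, thinned to 2000 UMIs, for the 12 genes of largest ratio, the 8 of smallest ratio and the 6 named myosin chains (MYH4 is in both). Red points are ratios over all nuclei with 95% counting intervals and open diamonds are averages within leading-chain groups; TECRL is highest at 5.25 and HS3ST2 lowest at -1.29.

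The largest companions did not share one distribution between muscles. TECRL had 100 CPM in QFM myonuclei and an EOM over QFM log2 ratio of -0.17, and CA3 had 233 CPM in QFM and a ratio of -2.31, so neither was higher in EOM overall. DKK2 stood at 0.39, the median of all genes. HSD17B2 (6.45), CNTNAP4 (6.57), RIT2 (6.05), ARHGAP15 (5.13) and DPP10 (5.10) were high in EOM and at 0.329 to 4.56 CPM in QFM. For COL25A1 this ratio was 5.43, closer to these than to TECRL and CA3.

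At the other end, the lowest ratios were small. HS3ST2, a heparan sulfate sulfotransferase, had 42.7 CPM with and 104 CPM without COL25A1, a log2 ratio of -1.29 (-1.59 to -1.01). SYBU, a linker for axonal cargo in neurons, stood at -1.11, KCNIP4, a potassium channel subunit, at -1.09, SH3RF2 at -1.08, the amino acid transporter SLC7A8 at -1.05 and the channel subunit LRRC52 at -1.05. The fast chain MYH4 stood at -1.11 and the fast myosin-binding protein MYBPC2 at -1.04. In all but HS3ST2 and MYH4 the interval reached values under a 2-fold difference.

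Over the myosin chains, MYH7 had the highest ratio, at 2.84 (1063 CPM with and 148 CPM without COL25A1), and MYH6 followed at 1.16. MYH15 was almost level at -0.13, MYH3 stood at -0.73 and MYH13 at -0.98. Across the slow fibre list 8 of 11 measured genes were at least 2-fold higher and 0 lower, with a median of 2.08 against 0.05 over all genes. Examples were MYL3 (3.52) and TNNI1 (3.47), the slow light chain and slow troponin I, while PPARGC1A (-0.56) and CD36 (-0.65), genes of oxidative metabolism, stood below 0. Of 11 fast fibre genes 0 were higher and 2 lower, MYH4 and MYBPC2, with a median of -0.72. PHKG1 (-0.17) and MYOZ1 (-0.35) were the closest to level.

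Of the transmembrane collagens, COL13A1, which acts at the neuromuscular junction, had 23.6 CPM with and 5.88 CPM without COL25A1, a log2 ratio of 2.01 (1.46 to 2.56). Between muscles, COL13A1 had 8.77 CPM in EOM myonuclei and 13.3 CPM in QFM myonuclei. COL17A1 had 1.31 CPM in EOM (39 UMIs) against 0.400 CPM in QFM (17 UMIs), a log2 ratio of 1.71, and COL23A1 had a ratio of 0.80 from 50 UMIs in EOM and 41 in QFM. Among partners, APP, the amyloid precursor, stood at 0.85 and PTPRD at 0.62, and FURIN had 3.43 and 3.33 CPM. None of these 3 was 2-fold higher. PTPRD was higher in EOM satellite-like nuclei, at 313 CPM, than in EOM myonuclei, at 19.2 CPM.

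Junction and denervation genes moved in part. Of 19 junction genes measured 6 were at least 2-fold higher and 0 lower, against 4.96% and 2.81% of all genes, with a median of 0.28 against 0.05 over all genes. ERBB3, a neuregulin receptor, stood at 2.64 and CHRNA1 at 2.40, with 91.8 CPM with and 17.4 CPM without COL25A1, while LRP4 (-0.40) and NRG1 (-0.62) stood below 0. Of 13 genes of the response to denervation 6 were higher and 0 lower, against the same 4.96% and 2.81%, with a median of 0.58. CHRNA1 and CHRNG (2.22) were highest of these, and FBXO32 (-0.47) and TRIM63 (-0.39), the ubiquitin ligases of muscle wasting, were below 0. CHRNA1, CHRNG and MUSK (1.31) are on both lists. Of the junction genes higher with COL25A1, ERBB3 (-1.17, 4 junctional UMIs) and CHRNG (-0.32) were not higher in EOM junctional than in other EOM myonuclei. CHRNA1 (3.04), CHRND (4.81), MUSK (3.84) and COL13A1 (4.06) were higher there. Among MYH7-rich EOM nuclei the ratio of ERBB3 with over without COL25A1 was 0.32.

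Smaller counts were seen for the other lists, again to be read against 4.96% of all genes higher. Of 15 signals from muscle to nerve 3 were at least 2-fold higher: FGF10 (3.29), SEMA3A (1.64) and FGF7 (1.22), the last of these named after its value was seen. Without cluster 7 SEMA3A stood at -0.051 and FGF10 at 0.039, so neither was then called, and the same holds for CHRNG (0.61), MYF6 (0.66) and UNC5D (0.60) of the other lists. SEMA3C (-0.53) and VEGFA (-0.78) were lowest. Among guidance and synapse-organising receptors UNC5D was highest, at 2.24, and ROBO2 (-0.80) and NRXN3 (-0.98) were lowest. Of 8 fusion and differentiation genes 2 were higher, the fusogen MYMK (2.54, 22 UMIs with COL25A1) and MYF6 (1.23), with NFATC2 (-0.25) among the lowest. Of 5 developmental sarcomere genes 2 were higher, TNNI1 and cardiac TNNT2 (1.55), while cardiac actin ACTC1 was level at 0.06. The row named MYH3 (-0.73) is counted in this list and in that of fusion and differentiation.

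The companions were also compared among MYH7-rich nuclei alone. Among EOM nuclei with at least 4 MYH7 UMIs, 537 had a COL25A1 UMI after thinning and 140 had none. In these nuclei, chosen for MYH7, the ratio of MYH7 was 0.09, and small ratios were also seen for CHRNA1 (0.19) and TNNI1 (0.37). ARHGAP15 (4.67), CNTNAP4 (4.56), COL28A1 (4.52), TECRL (4.45), CA3 (3.81) and SEMA3A (3.38) were still higher with COL25A1, where 7.41% of 7899 genes were at least 2-fold higher and 3.43% lower, or 3.82% and 2.7% of genes of at least 50 CPM. The rest of the 12 genes of largest ratio varied, and CSMD3 (3.30), DKK2 (3.22) and LRP2 (2.76) were clearly higher as well. SLC35F1 (1.55), HSD17B2 (1.52) and DPP10 (1.16) were less so, and RIT2 (0.60) was no longer 2-fold higher. MYH6 was lower, at -2.23. SEMA3A, an axon repellent, had 557 CPM with MYH7 alone and 66.2 CPM with both chains, against 49.3 CPM with MYH15 alone.

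By level over the 8 EOM clusters of myonuclei, the genes most like COL25A1 were MYOC (Pearson r = 0.997 on log2 CPM), SLC35F1 (0.994), HSD17B2 (0.993), CDH11 (0.992), CPXM2 (0.992), DPP10 (0.990), MCUB (0.990), MYO1E (0.988), DCLK1 (0.988) and XPO4 (0.987). These are correlations over 8 points that share 1 library, given as a description. Without cluster 7 each of the 10 had r of at least 0.971, but they were picked for high r over these same clusters, so this is no separate check. Cluster 16 was then far the highest in COL25A1, at 1596 CPM, with cluster 3 next at 343 CPM. MYOC, the secreted protein myocilin, had 327 CPM in cluster 7 and 112 CPM in cluster 16, and 4.45 CPM in QFM myonuclei. XPO4, a nuclear transport receptor, went the other way between muscles, with an EOM over QFM log2 ratio of -2.12.

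Markers of other cell types moved with the COL25A1 groups in part. The summed neuron markers, 7 of 8 in the table, stood at 308 CPM in EOM nuclei with MYH7 alone, 68.6 with both chains, 35.4 with MYH15 alone and 48.5 with neither. Of the 308 CPM, SYT1 made up 280 CPM, and CHAT and ELAVL4 were at 0. The summed satellite markers, 6 of 8 in the table, stood at 411, 277, 168 and 154 CPM in the same order, of which MEGF10 made up 249 CPM and PAX7 134 CPM in the first group. Satellite-like nuclei themselves had 350 CPM of COL25A1, below the 5890 CPM of nuclei with MYH7 alone. The lymphatic list stood at 319, 246, 26.6 and 29.5 CPM, of which PROX1 made up 263 CPM in the first group, and the tendon junction list at 2092, 715, 601 and 787 CPM. The Schwann list went the other way, at 266, 423, 2263 and 1140 CPM. The part of these markers in the result was not tested.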

How the data were processed

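The values are UMI counts per gene and barcode as deposited by the authors, not normalized. The nuclei tables were written by Cell Ranger 7.2.0, per the file headers, and Seurat 5.2.1 is listed beside it, per the submitters' processing notes. Build, annotation and use of strand in counting: not given in the sources used here. Gene symbols in the table of cells were looked up in an NCBI gene table, for names only. Strand being unknown, reads of overlapping antisense genes cannot be told apart.

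Barcodes with under 200 genes, under 500 UMIs or over 10% (nuclei) or 20% (cells) mitochondrial UMIs were removed, doublets were called with scrublet and removed (15.2% of EOM nuclei, 2.58% of EOM cells and 15.1% of QFM nuclei), and each library was clustered on its own by the Leiden method in scanpy 1.11.5 (Python 3.11.15). A cluster was named from marker lists, or left unnamed where scores of 2 classes tied or markers of another class led it, a rule set after seeing the data. Levels are summed UMIs per 1000000 UMIs of the group, with exact Poisson intervals, and shares have Clopper-Pearson intervals. Log2 ratios have intervals from an exact binomial test of the 2 sums. All are 95% intervals, and 3 counts is the floor for a sum of 0. A gene is called higher or lower at a 2-fold difference with at least 20 UMIs in both sums together. The ratio and thinning steps were tested on simulated data.

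COL25A1, its groups and the gene lists were chosen with earlier results of these data known. Genes named as going with COL25A1 are the 12 of largest and 8 of smallest ratio at 50 CPM or more, the 10 of highest correlation over clusters, the named myosins, and up to 4 of each list, the 2 largest and the 2 smallest. Others were named after their values were seen. Alternatives in doublet calls, filters, clustering, cuts, scaling and thinning were run. The full count over the list of guidance receptors is not reported here.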

Additional observations from a re-analysis of the deposited data

Results flagged for a closer look

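The ratio of COL25A1 in junctional over other myonuclei had opposite signs in the 2 muscles. Its log2 ratio of junctional over other myonuclei was -2.31 in EOM (108 and 535 CPM) and 5.29 in QFM (246 and 6.29 CPM). The difference between these ratios was not tested, since each muscle has 1 library. The share of nuclei with a UMI was 31.9% in EOM junctional nuclei and 31.8% in the others, or 14.8% and 18.5% thinned to 1000 UMIs. The EOM junctional level lay above the 48.6 to 75.004 CPM of EOM clusters 4, 5, 6 and 13. The QFM value came from 10 of 140 nuclei, which held 253 of 256 UMIs.

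The EOM cell library, which holds too few fibre cells to measure the gene there, had COL25A1 above the level of 3 counts in 2 other classes. Schwann-like cells had 36.1 CPM from 15 UMIs in 11 of 349 cells. Mural-like cells had 4.18 CPM from 12 UMIs, all in 1 cluster of 242 cells. There is no other library of cells to set them against. In the EOM nuclei library mural-like nuclei had 219 CPM and Schwann-like nuclei 243 CPM, the latter with 64 of 93 UMIs in 1 nucleus.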

How the results depend on the processing

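The EOM over QFM log2 ratio of COL25A1, 5.43, stayed positive throughout. It was 5.79 with called doublets kept, 5.92 with at least 1000 UMIs and at most 5% mitochondrial UMIs, 6.41 without junctional clusters, 5.16 with median ratio scaling, 5.05 over all kept nuclei and 6.003 thinned to 1000 UMIs. The MYH7 ratio, 4.14, was 3.96 with doublets, 4.35 with the stricter filter, 4.32 at Leiden resolution 2, 4.33 without shallow clusters, 3.40 with a cut at 8 UMIs and 3.43 thinned to 2000 UMIs. The MYH15 ratio, -0.53, was -0.58 at resolution 2 and without shallow clusters, -0.42 and -0.66 with cuts at 2 and 8 UMIs, and -0.64 thinned. The MYH15-led over MYH13-led ratio, 1.63, was 1.35 with doublets, 1.92 with the stricter filter, 1.90 at resolution 2, 1.91 without shallow clusters and 2.73 where the leading chain held 60% of myosin UMIs. The 717 genes higher with COL25A1 became 470 without thinning and 1196 with at least 2 COL25A1 UMIs.

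Other alternatives were chosen after seeing the data. Without cluster 7 the first 4 ratios were 4.16, 3.69, 1.39 and 2.08, and without clusters 7 and 16 they were 2.94, 3.09, 0.29 and -0.49, so the last 2 changed sign. With cluster 9 counted as myonuclei, the MYH7, MYH15 and chain ratios were 3.19, -0.47 and 1.17. Without the 17 QFM nuclei of 3 or more COL25A1 UMIs the EOM over QFM ratio was 8.61. At 50 CPM or more, 179 genes were higher. SEMA3A was -0.051 without cluster 7, and MYF6 was -0.40 and FGF10 -0.12 without clusters 7 and 16. The cause of these shifts was not tested. Of the 717 genes 44.6% were also called without cluster 7 and 17.7% without clusters 7 and 16. No paired analysis was possible because each group has 1 library.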
